A study of Mus musculus with 8 samples.

Results

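Hypoxia-inducible factors and their target genes were followed in 8 murine neuroblastomas profiled on Affymetrix murine oligonucleotide arrays. The genes were a named set of 10, chosen by their place in the pathway, and every probe set naming 1 of them alone was taken. Of these, 3 encode the factors (Hif1a, Epas1 and Arnt) and 7 are known targets (Vegfa, Car9, Bnip3, Egln3, Ndrg1, Adm and Ankrd37). They were read by 25 of the 45101 probe sets on the array, where 34958 probe sets named a single gene and covered 18194 genes. No probe set shared between several genes named any of the 10. All tumors arose in LSL-MYCN;Dbh-iCre mice and were excised without treatment. In this line a human MYCN transgene in the ROSA26 locus follows a CAG promoter and a floxed stop cassette, and Cre under the Dbh promoter releases it in noradrenergic cells. There were 2 tumors of the superior cervical ganglion (tumors 7 and 8) and 6 adrenal tumors (tumors 1 to 6), with 1 array each. Both groups carried the same alleles, their ages were not given, and adrenals of wild-type mice were not analysed here. Whether any of the tumors shared a mouse was not stated in the sources used here, and p-values measure only the spread between these 8 samples.

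Cells respond to falling oxygen largely through the hypoxia-inducible factors. An alpha subunit, encoded by Hif1a or Epas1, is made continuously, and in the presence of oxygen prolyl hydroxylases of the EGLN family modify it so that the VHL ubiquitin ligase marks it for degradation. When oxygen is short the alpha subunit persists, pairs with the ARNT protein and binds hypoxia response elements with a core of ACGTG or GCGTG. The alpha subunits are thus controlled mainly as proteins, and levels of their RNA do not show how much factor was active. In sympathetic neuroblasts Egln3 is also known for a role in cell death when nerve growth factor becomes limiting, and Epas1 is prominent in the developing sympathoadrenal lineage.

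The sequences upstream of the factor and target genes were searched for the core of the hypoxia response element. Sequences of 250 bases before the start of transcription came from RefSeq (GRCm38.p6), and the table used here gave 9 windows for 8 of the 10 genes. The promoters of Ndrg1 and Epas1 were not analysed here. ACGTG or GCGTG was sought on both strands, so that CACGT and CACGC also counted, and overlapping matches were merged. The palindrome CACGTG, an E-box that MYC proteins also bind, holds ACGTG on both strands. Of the 9 windows, 8 held a match, and every one of the 8 genes had at least 1 window with a match. Vegfa had 2 windows on the minus strand of chromosome 17. That at 46032378-46032627 held no match. The 2 stretches of Vegfa lay in the window further downstream, at 46025164-46025413, past the start that the first window precedes. For Vegfa the match was thus upstream of an internal start only. Over the 32851 windows of the table, 38.6% held a match, 13.5% held at least 2 separate stretches and 4.65% at least 3. Bnip3 had 4 stretches and Ankrd37 3, whereas Egln3 and Car9 had 1 each. CACGTG was present upstream of Bnip3 and Hif1a, and in 6.02% of all windows. The windows of 4 target genes are printed because these genes cover the range of expression found below: Egln3 and Ankrd37 were both lowest in tumor 7, Bnip3 was high in all, and Car9 was at background in all. They read 5′ to 3′ on the strand of the gene and end at the base before the start, and capitals mark the matches. Egln3 lies at chr12:54203875-54204124 on the minus strand, Ankrd37 at chr8:45999851-46000100 on the minus strand, Bnip3 at chr7:138909507-138909756 on the minus strand and Car9 at chr4:43506776-43507025 on the plus strand.
Egln3: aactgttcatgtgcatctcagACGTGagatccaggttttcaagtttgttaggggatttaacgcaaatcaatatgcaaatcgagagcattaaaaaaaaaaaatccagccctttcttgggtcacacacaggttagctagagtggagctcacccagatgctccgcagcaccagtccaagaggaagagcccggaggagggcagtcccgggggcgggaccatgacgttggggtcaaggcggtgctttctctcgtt
Ankrd37: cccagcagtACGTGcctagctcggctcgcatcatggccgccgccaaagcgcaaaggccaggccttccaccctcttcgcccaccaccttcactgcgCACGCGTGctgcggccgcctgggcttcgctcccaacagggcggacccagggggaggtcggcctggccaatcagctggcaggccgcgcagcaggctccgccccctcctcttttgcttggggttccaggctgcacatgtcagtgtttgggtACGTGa
Bnip3: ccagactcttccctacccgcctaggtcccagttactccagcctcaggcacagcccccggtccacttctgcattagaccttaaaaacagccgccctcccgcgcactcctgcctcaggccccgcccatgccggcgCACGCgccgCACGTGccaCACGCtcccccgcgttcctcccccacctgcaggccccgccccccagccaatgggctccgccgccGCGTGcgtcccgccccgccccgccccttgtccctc
Car9: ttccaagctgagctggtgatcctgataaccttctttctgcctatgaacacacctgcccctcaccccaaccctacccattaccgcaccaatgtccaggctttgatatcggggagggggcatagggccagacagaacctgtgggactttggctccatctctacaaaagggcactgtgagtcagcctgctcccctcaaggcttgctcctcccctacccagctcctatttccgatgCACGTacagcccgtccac
The single match of Egln3 began 229 bases before the start, and that of Car9 began 18 bases before it. In Ankrd37 the last match began 6 bases before the start. The matches describe these letters only, and binding was not measured.

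Values were log2 expression levels between 3.00 and 15.27 over the 8 arrays, and each array's upper quartile lay between 8.85 and 8.93. A probe set was called detected where it exceeded the 95th percentile of 86 probe sets for olfactory, vomeronasal and taste receptors on the same array, a limit between 6.71 and 7.21. Tumor 7 stood apart from the others. All 8 measured noradrenergic genes were lowest there, but to unequal degrees. Isl1 read 13.48 in tumor 7, against 13.78 in tumor 8 and 13.69 to 14.05 in the adrenal tumors, and Hand2 12.58, against 13.49 and 13.33 to 13.74. Ddc, the decarboxylase of catecholamine synthesis, read 7.38, against 14.22 and 13.66 to 14.25. Gata3, a transcription factor of the sympathetic lineage, was at 5.22 in tumor 7, below detection, against 11.54 in tumor 8 and 11.12 to 11.80 in the adrenal tumors. The other 7 remained detected in tumor 7, with Dbh, the gene whose promoter drove Cre, at 9.07. The log2 of the summed level of these markers was 14.36 in tumor 7 and 16.39 in tumor 8, against 16.20 to 16.46 in the adrenal tumors. Skeletal muscle transcripts were high in both ganglion tumors, with summed levels (log2) of 11.24 in tumor 7 and 10.65 in tumor 8, against 9.25 to 9.68 in the adrenal tumors. Of these, 7 of 9 were highest in tumor 7, against 17.3% of all genes. No muscle gene was detected in every tumor and 2 were detected in none, so these values partly rest on levels near background. Of 11 macrophage genes, 10 lay below the mean of the other tumors in tumor 7, as did 9621 of all 16254 genes tested. The summed level of the 11 was 13.05 in tumor 7 and 13.92 in tumor 8, against 13.24 to 14.08 in the adrenal tumors. Adrenal tumor 5 was nearly as low, with 3 of the 11 lowest there and 4 in tumor 7. With each gene centred on its mean over the tumors, they averaged -0.51 in tumor 5 and -0.58 in tumor 7. Of 9 immediate early genes, which respond within minutes to stimulation or handling, 8 lay above the mean of the other tumors in tumor 7. So did 6633 of all 16254 genes tested. A difference of more than 1 above it was found for 3 of the 9, against 4.59% of all genes. Fos read 12.13 in tumor 7, against 9.23 in tumor 8 and 7.15 to 9.67 in the adrenal tumors. Adrenal tumor 2 was high as well: 5 of the 9 were highest there and 4 in tumor 7. After centring each gene on its mean over the tumors, they averaged 0.75 in tumor 2 and 0.84 in tumor 7. Their medians were 0.73 and 0.26. The liver transcripts were highest in tumor 6 for 11 of 11 genes. On the array of tumor 1 the 3′ probe set of Gapdh exceeded its 5′ probe set by 5.51, against 0.47 to 1.57 on the other arrays. In these bulk samples, fewer cells of a type and less RNA per cell cannot be told apart.

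Of the 25 probe sets, 14 exceeded the limit in every tumor, 4 in some and 7 nowhere, while 45.4% of all single-gene probe sets did so in every tumor and 36.9% nowhere. All 25 passed the filter on low values used for testing (log2 above 5 in at least 2 tumors). For a gene-level value, the probe set of highest mean level stood for its gene. The SD over the 8 tumors had a median of 0.40 over these genes, against 0.26 over all 16254 genes tested, and 7 of the 10 lay above this median of all genes. Without tumor 7 these medians were 0.31 and 0.23. Egln3 had an SD of 1.54, at the 99.2 percentile of all genes, and Adm, Ndrg1, Ankrd37 and Epas1 lay between the 83.3 and 94.2 percentiles. Arnt and Car9 were at the 26.9 and 10.7 percentiles.

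**Figure D1:**
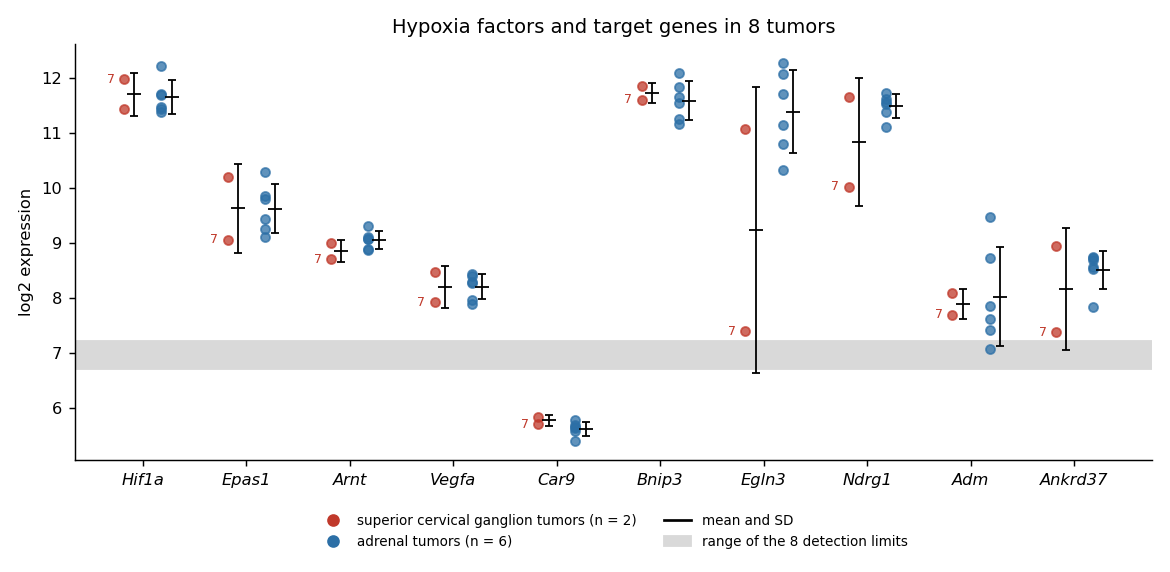
log2 expression of the 10 genes, each by its leading probe set, in the 2 ganglion tumors (red, tumor 7 marked) and the 6 adrenal tumors (blue), with mean and SD of each group and the range of the 8 detection limits in grey. Egln3, Ndrg1 and Ankrd37 were lowest in tumor 7, and all points of Car9 lay below the grey band.

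Hif1a, the alpha subunit found in most tissues, was detected throughout by 2 of its 4 probe sets. Its leading probe set, 1427418_a_at, read 11.98 in tumor 7 and 11.43 in tumor 8 of the ganglion, against 11.71, 11.48, 12.22, 11.69, 11.38 and 11.44 in adrenal tumors 1 to 6. Tumor 3 was thus highest, and both ganglion tumors lay within the adrenal range. The second probe set, 1416035_at, read 10.43 and 9.42 in the ganglion tumors and 9.36 to 10.36 in the adrenal tumors, and followed the first with a Pearson correlation of 0.87 over 8 tumors. Tumors 1, 3 and 7 formed the upper end of both probe sets. The other 2 probe sets, 1448183_a_at and 1431981_at, stayed below detection in all tumors.

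Epas1, which encodes the alternative alpha subunit, split the ganglion pair. Its detected probe set, 1435436_at, read 9.06 in tumor 7 and 10.19 in tumor 8, against 9.86, 9.25, 9.80, 9.43, 9.11 and 10.29 in the adrenal tumors. Tumor 7 was lowest of all, and only tumor 6 exceeded tumor 8. The group means were 9.63 ± 0.80 (SD, n = 2) in ganglion tumors and 9.62 ± 0.44 (SD, n = 6) in adrenal tumors. The other Epas1 probe set was detected in no tumor. Vascular endothelium is known for high Epas1. Of 12 endothelial genes, only 4 were detected in every tumor and 1 in none, so the counts here partly rest on values near background. In tumor 7, where Epas1 was lowest, 10 of the 12 lay above the mean of the other tumors, as did 6633 of all 16254 genes. None was highest in tumor 6, where Epas1 was highest, against 5.19% of all genes. In tumor 8, next in the order of Epas1, 7 were highest, against 7.88% of all genes. In tumor 5, the lowest of the adrenal tumors, 9 were lowest, against 14.4% of all genes. The log2 of the summed endothelial level was 11.44 and 11.67 in the ganglion tumors and 10.90 to 11.61 in the adrenal tumors, and its part in the Epas1 values was not tested.

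Arnt, the shared partner of both alpha subunits, varied least of the detected genes by its leading probe set (SD 0.18). By its other detected probe set it did not (SD 0.37). Its leading probe set, 1437042_at, averaged 8.85 ± 0.20 (SD, n = 2) in ganglion tumors and 9.06 ± 0.16 (SD, n = 6) in adrenal tumors, with 8.70 in tumor 7 the lowest value. A further detected probe set, 1419996_s_at, read 8.45 in tumor 7 and 8.19 to 9.07 in the remaining tumors. The 2 did not follow each other (r = -0.01 over 8 tumors), so the small differences between tumors in Arnt depended on the probe set. The remaining 3 Arnt probe sets were below detection in every tumor.

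Egln3 showed the widest range of the 10 genes. Its product, a prolyl hydroxylase that marks the alpha subunits, is itself induced by them. Probe set 1418649_at read 7.39 in tumor 7 and 11.07 in tumor 8, against 11.72, 10.33, 12.28, 12.07, 11.15 and 10.80 in adrenal tumors 1 to 6. Tumor 7 minus the mean of the other 7 tumors was -3.95 on the log2 scale, and only 33 of the 16254 genes tested lay further below. Probe set 1418648_at gave the same picture, with 6.42 in tumor 7, which was below detection, 10.27 in tumor 8 and 9.66 to 11.36 in the adrenal tumors, and its correlation with the first was 0.998 over 8 tumors. Among the 7 tumors other than tumor 7, Egln3 still varied more than most genes, with an SD of 0.70 at the 95.6 percentile, and tumor 3 was highest and tumor 2 lowest.

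Ndrg1, a stress and differentiation gene induced by hypoxia and known to be held down by MYCN in human neuroblastoma cells, was read by 5 probe sets that were all detected in every tumor. Probe set 1420760_s_at read 10.02 in tumor 7 and 11.66 in tumor 8, against 11.53, 11.62, 11.73, 11.11, 11.56 and 11.39 in the adrenal tumors. All 5 probe sets were lowest in tumor 7, with differences from the mean of the other tumors between -1.69 and -0.66. By the leading probe set the difference was -1.50, and 414 of 16254 genes lay further below. Without tumor 7 the SD of Ndrg1 was 0.21, at the 43.8 percentile, so the spread of this gene lay in that tumor.

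Ankrd37, an ankyrin-repeat gene directly induced by hypoxia, had 1 probe set. It read 7.37 in tumor 7 and 8.94 in tumor 8, against 8.73, 8.73, 7.84, 8.55, 8.52 and 8.69 in the adrenal tumors. The ganglion tumors were thus the lowest and the highest of all 8, and tumor 3 stood below the other adrenal tumors. Tumor 7 minus the mean of the others was -1.20, with 665 of 16254 genes further below. The middle 90% of all genes, between the 5th and 95th percentiles, spanned -1.10 to 0.95 for the same difference. Egln3, Ndrg1 and Ankrd37 were low in the tumor where noradrenergic and macrophage genes were also low and immediate early and muscle genes high. Muscle genes were high in tumor 8 as well, with a summed level (log2) of 10.65 against 11.24 in tumor 7. Immediate early genes were also high in adrenal tumor 2, and macrophage genes were also low in adrenal tumor 5. The part of any of these in the 3 levels was not tested.

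**Figure D2:**
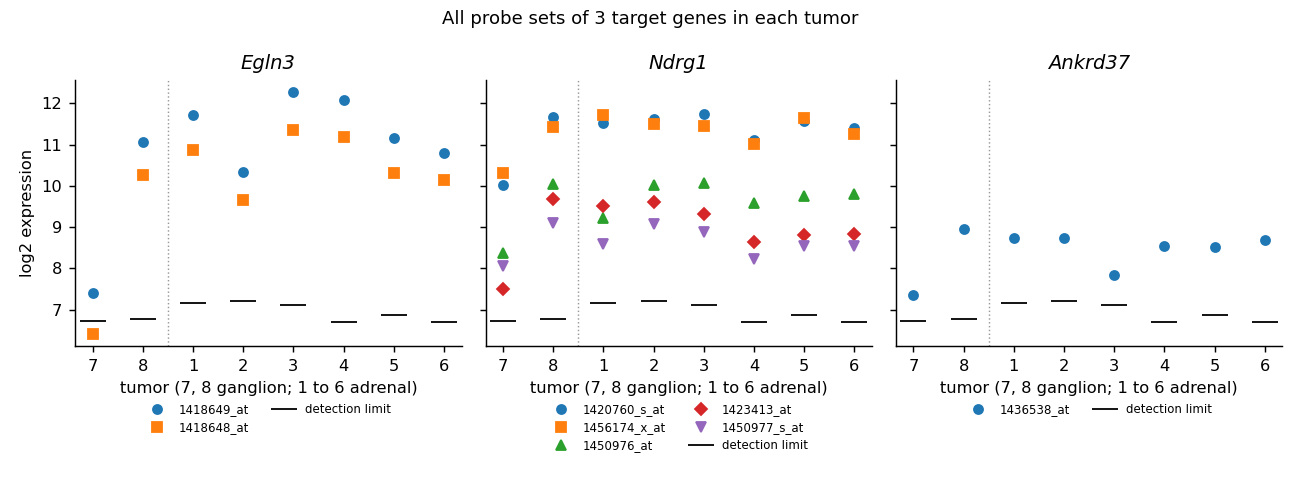
log2 expression of every probe set of Egln3, Ndrg1 and Ankrd37 in each tumor, ganglion tumors left of the dotted line, with the detection limit of each array as a dash. All 8 probe sets were lowest in tumor 7, and 1 of the Egln3 probe sets fell below the limit there.

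The other 4 targets did not set tumor 7 apart. Bnip3, which promotes removal of mitochondria, read 11.60 and 11.87 in ganglion tumors 7 and 8, against 11.66, 12.09, 11.25, 11.16, 11.83 and 11.55 in the adrenal tumors. Both ganglion values lay within the adrenal range. Vegfa, the principal signal for new vessels, read 7.92 and 8.46 in the ganglion tumors by probe set 1420909_at, against 7.89 to 8.43 in the adrenal tumors with a median of 8.28. Tumor 8 was the highest and tumors 1, 3 and 7 were the lowest, between 7.89 and 7.95, although a second Vegfa probe set, detected in tumors 5 and 7 only, did not follow the first (r = -0.16 over 8 tumors).

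Adm, which encodes the vasodilator adrenomedullin, was highest in tumor 5. Probe set 1447839_x_at read 7.69 and 8.08 in ganglion tumors 7 and 8, against 8.72, 7.07, 7.41, 7.85, 9.47 and 7.61 in the adrenal tumors. Tumor 2 was the lowest and was below detection there. Probe set 1416077_at, detected in 5 tumors, also placed tumor 5 highest with 8.25 and tumor 2 lowest with 6.02, and the correlation of the pair was 0.93 over 8 tumors. In tumor 5, 9 of 12 endothelial genes were lowest, against 14.4% of all genes, though only 4 of the 12 were detected in every tumor. The part of the endothelial genes in the Adm level was not tested. The SD of Adm was 0.77 over all tumors and 0.82 without tumor 7, so the spread of this gene did not rest on tumor 7.

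Car9, a membrane carbonic anhydrase that is among the most strictly hypoxia-dependent targets in human tumors, was below detection in all 8 tumors. Its only probe set, 1427013_at, read 5.70 and 5.83 in ganglion tumors 7 and 8, against 5.39 to 5.77 in the adrenal tumors with a median of 5.64. These values cannot be told from background, and no difference between tumors can be read from them.

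The comparison of tumors by site asked whether hypoxia genes differed between the ganglion and the adrenal. None of the 10 genes passed the threshold in limma (Benjamini-Hochberg adjusted p under 0.05 over all genes), where 3 of 16254 genes, or 0.0185%, did so, each higher in ganglion tumors. At an unadjusted p under 0.05 there were 761 genes (4.68%), and Egln3 was the only one of the 10 among them. None of the 25 probe sets passed when all 30285 were tested one by one, where 5 (0.0165%) did. None of the 10 genes had both ganglion tumors outside the adrenal range, an arrangement found for 4.42% of all genes (2.31% with both ganglion tumors above and 2.1% with both below), and none of the 25 probe sets did, compared with 4.37% of all probe sets. With 2 tumors in a group the comparison had little precision, and the 95% intervals of the differences were wide.

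Egln3 averaged 9.23 ± 2.60 (SD, n = 2) in ganglion tumors and 11.39 ± 0.76 (SD, n = 6) in adrenal tumors. The difference was -2.16 with a standard error of 0.86 and a 95% interval of -4.12 to -0.19 (limma adjusted p = 0.903). An exact two-sided permutation of the 28 possible splits of the tumors gave p = 0.107, the smallest possible value being 0.0357. The 2 ganglion tumors did not share the low level, since only tumor 7 lay below the adrenal range. Ndrg1 differed by -0.65 (95% interval -1.48 to 0.18) and Ankrd37 by -0.35 (-1.24 to 0.53). For Hif1a the difference was 0.05 (-0.50 to 0.60), for Epas1 0.00 (-0.83 to 0.84) and for Arnt -0.21 (-0.56 to 0.15). Intervals for Bnip3, Vegfa and Car9 lay within 0.71 of 0 in either direction, while that of Adm reached from -1.44 to 1.16.

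Each ganglion tumor was then set against the adrenal tumors alone, the lone tumor being assumed to vary like the others. With tumor 7 as the ganglion tumor, 951 of 16210 genes passed (5.87%), and 488 of them were lower in tumor 7 (3.01%). Egln3 was lower by a log2 difference of -4.00 (standard error 0.67, limma adjusted p = 0.0134) and Ndrg1 by -1.47 (standard error 0.24, limma adjusted p = 0.0124), and Ankrd37 did not pass at -1.14 (limma adjusted p = 0.0951). With tumor 8 as the ganglion tumor, 8 of 16220 genes passed (0.0493%) and none of the 10, with differences of -0.32 for Egln3, 0.17 for Ndrg1 and 0.43 for Ankrd37. The negative differences of Ndrg1 and Ankrd37 between the sites therefore rested on tumor 7, and without it both were positive.

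The wider pathway was read from 3 lists of further genes: 21 measured regulators of the factors, 23 measured targets of energy metabolism and 42 measured targets with other roles. No gene of these lists passed the threshold between the sites. After centring each gene on its mean over the tumors, the 7 target genes averaged -0.91 in tumor 7 and 0.26 in tumor 8, against -0.03 to 0.35 in the adrenal tumors. This low mean rested on Egln3, Ndrg1 and Ankrd37: the median of the 7 was -0.30 in tumor 7 and 0.24 in tumor 8, against -0.31 to 0.21 in the adrenal tumors, with tumor 3 the lowest. The metabolic targets averaged 0.73 in tumor 7 and -0.10 in tumor 8, against -0.47 to 0.12 in the adrenal tumors. The other targets averaged 0.01 and 0.32 in the ganglion tumors and -0.28 to 0.12 in the adrenal tumors, and the regulators stayed within 0.09 of 0 in all tumors.

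The metabolic targets include enzymes of glycolysis and of glycogen, glucose transporters, and others such as a kinase of pyruvate dehydrogenase, an adenylate kinase and a carbonic anhydrase. Of these, 11 of 23 were highest in tumor 7 and none was lowest there, whereas over all genes 17.3% were highest and 26.4% lowest in that tumor. A difference of more than 1 above the mean of the other tumors was found for 7 of the 23 (30.4%), compared with 4.59% of all genes. The immediate early genes were also high and the macrophage and noradrenergic genes low in this tumor. Immediate early genes were likewise high in tumor 2, and macrophage genes low in tumor 5. The part of these lists in the metabolic levels was not tested. Ldha, the lactate dehydrogenase subunit of glycolytic cells, read 13.66 in tumor 7 and 12.83 in tumor 8, against 12.43 to 12.90 in the adrenal tumors. Aldoa and Pgk1, enzymes of glycolysis, were also highest in tumor 7, with 13.55 against at most 13.29 elsewhere and 13.47 against at most 13.24. Tpi1, another glycolytic enzyme, was not, reading 13.03 in tumor 7, within the range of 12.51 to 13.11 elsewhere. Ak4, a mitochondrial adenylate kinase, reached 11.34 in tumor 7, against 8.95 in tumor 8 and 8.35 to 9.22 in the adrenal tumors. Car12, a carbonic anhydrase like Car9, reached 10.08 in tumor 7, against 6.79 in tumor 8 and 6.65 to 8.65 in the adrenal tumors. Slc16a3, the lactate exporter, was detected in no tumor.

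Tumor 3 stood at the other end of this list. There 12 of the 23 metabolic targets were lowest and none highest, while 8.88% of all genes were lowest in tumor 3. The same tumor had the highest Hif1a level by the leading probe set and the highest Egln3 level of all 8. Eno2, the neuronal enolase, was detected in tumors 5 and 7 only, with 7.66 in tumor 7 and 8.81 in tumor 5, and Gbe1, which branches glycogen, was detected in 3 tumors. Between the sites the metabolic targets had a median difference of 0.33, with 19 of 23 positive, against a median of -0.03 over all genes, of which 7276 of 16254 were positive. The 2 ganglion tumors did not share this: the centred mean of the list was 0.73 in tumor 7. In tumor 8 it was -0.10, within the adrenal range of -0.47 to 0.12. Ldha, Pdk1 and Ak4 were the 3 with an unadjusted p under 0.05 (limma adjusted p = 0.903 each), where 2.68% of all genes were higher in ganglion tumors at that p, and in all of them tumor 7 was highest.

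**Figure D3:**
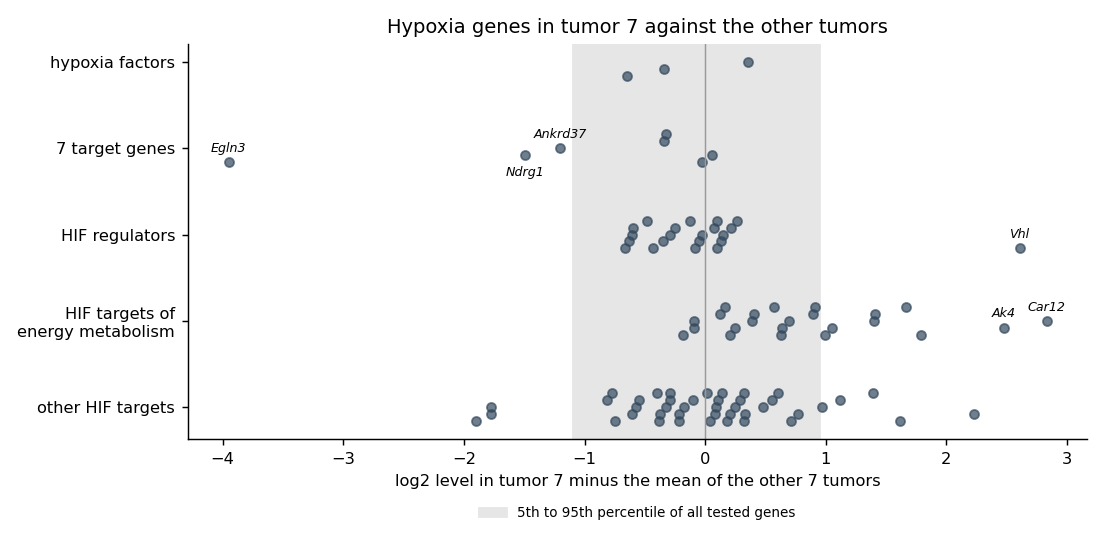
Each point is a gene, placed by its log2 level in tumor 7 minus the mean of the other 7 tumors, in 5 rows for the factors, the 7 target genes and the 3 further lists; grey spans the 5th to 95th percentile of all tested genes. Egln3, Ndrg1 and Ankrd37 lay left of the grey span, and Vhl, Ak4 and Car12 far to its right.

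Among the regulators, 20 of 21 were detected in all tumors. Rbx1, the RING subunit of the VHL ligase, was the exception, with values between 6.19 and 6.83. Vhl, the subunit that recognises hydroxylated alpha subunits, read 12.08 in tumor 7 and 9.46 in tumor 8 by probe set 1434708_at, against 9.26 to 9.70 in the adrenal tumors. Its second probe set, 1421071_at, was detected in tumor 7 only, with 9.14 there, 6.64 in tumor 8 and 5.83 to 6.67 in the adrenal tumors. By the first probe set, tumor 7 lay 2.61 above the mean of the others, and 98 of 16254 genes lay further above. Vhl is on chromosome 6, as is ROSA26, with 25 annotated genes between them. Of the 20 tested genes of that stretch, 15 were more than 1 above the mean of the other tumors in tumor 7, with a median of 2.05, and the part of this neighbourhood in the Vhl level was not tested. The partners of VHL in the ligase did not share its high level. Elob was at 12.50 in tumor 7, against 13.21 in tumor 8 and 13.02 to 13.19 in the adrenal tumors. Eloc and Cul2, picked out after their values were seen, were also lowest in tumor 7, as were 26.4% of all genes. Rbx1 read 6.80 in tumor 7, within the range of 6.19 to 6.83 elsewhere.

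Egln1 and Egln2, the other prolyl hydroxylases of the family, had ranges of 10.04 to 10.60 and 10.12 to 10.56, and in contrast to Egln3 neither was low in tumor 7, with 10.55 and 10.40. Hif1an, which blocks the transactivation domain of the alpha subunits, and Arnt2, a neuronal relative of Arnt, were lowest in tumor 1 with 8.18 and 9.34. Cited2, which competes with the factors for their coactivator, was lowest in tumor 7, at 12.35 against 12.76 to 13.26 elsewhere. Hsp90aa1, a chaperone of the alpha subunits, ranged only from 13.90 to 14.17. Hif3a lay between 7.97 and 8.47, Arntl between 7.28 and 8.16, and Sdhb, a succinate dehydrogenase subunit whose loss stabilises the factors in paraganglioma, between 11.95 and 12.44.

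Of the 42 other targets, 30 exceeded the limit everywhere, and Bhlhe41, Zfp395 and Cox4i2 nowhere. Igfbp3, a binding protein of insulin-like growth factors, read 11.13 and 11.70 in ganglion tumors 7 and 8, against 8.12 to 10.44 in the adrenal tumors, with no overlap between the sites. Its difference of 2.00 (standard error 0.54) did not pass the threshold (limma adjusted p = 0.903). In Flt1, Lox, P4ha1, P4ha2 and Mt1 of this list both ganglion tumors also lay above the adrenal range. This arrangement was found for 2.31% of all genes. Mt1, a metallothionein, was highest in tumor 7 with 12.70, against 10.97 in tumor 8 and 9.81 to 10.89 in the adrenal tumors. Selenbp1, a selenium-binding protein, was lowest in tumor 7 with 6.55, below detection, against 8.31 in tumor 8 and 6.96 to 9.61 in the adrenal tumors. Mif, Tfrc, Higd1a and Wsb1 were detected in all tumors and placed neither ganglion tumor outside the adrenal range, except that Mif was highest in tumor 7 (14.01, compared with at most 13.90 in the adrenal tumors) and Wsb1 and Higd1a were lowest in tumor 8. At an unadjusted p under 0.05, 7 of the 42 were higher and 1, Ccng2, was lower in ganglion tumors, where 2.68% of all genes were higher and 2% lower, and 28 of the 42 differences were positive with a median of 0.13, against 7276 of 16254 over all genes.

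**Figure D4:**
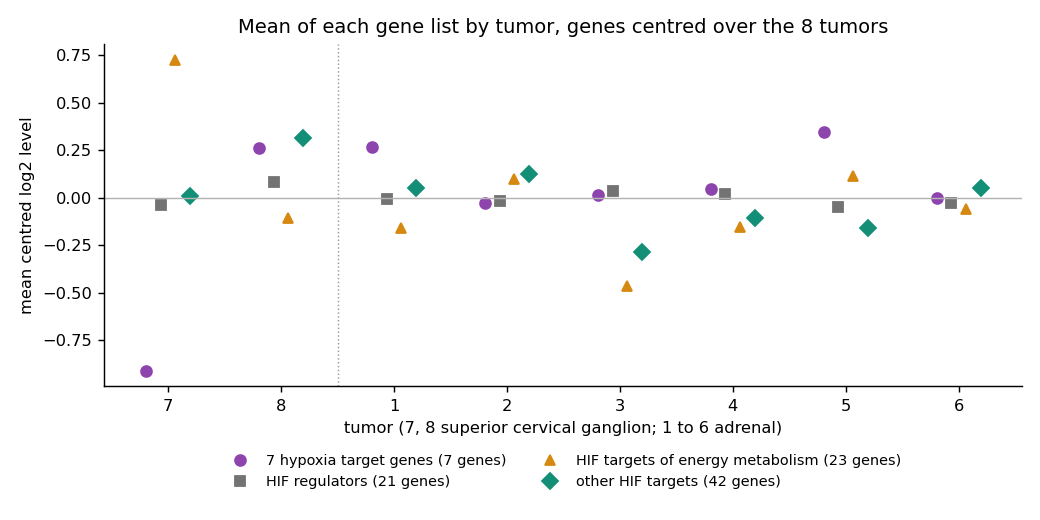
Mean centred log2 level of the 7 target genes and of the 3 further gene lists in each tumor, ganglion tumors left of the dotted line; each gene was centred on its mean over the 8 tumors. In tumor 7 the mean of the 7 target genes (-0.91), carried by Egln3, Ndrg1 and Ankrd37, lay below 0 and that of the metabolic targets (0.73) above it, and in tumor 3 the metabolic targets reached their lowest mean (-0.47).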

How the data were processed

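Total RNA of each tumor was hybridised to 1 array. The authors deposited log2 expression values per probe set, already corrected for background and normalized between arrays. According to the submitters' processing notes this was done with RMA (Partek 6.6), whereas gcRMA is given in the study's methods. The files do not show which is right, and as the 2 methods treat low signals differently, values near background are the least certain. Probe sets were named from the platform annotation, with symbols updated through Entrez identifiers (34754 of 34958 single-gene probe sets matched the GRCm38.p6 gene table). Some genes of the pathway lists had no probe set named here and were not analysed. The probe set of highest mean level stood for its gene, and testing was limited to genes that exceeded log2 5 in 2 or more tumors. Ganglion tumors were compared with adrenal tumors in limma 3.58.1 (R 4.3.3; lmFit and eBayes over all genes, Benjamini-Hochberg adjustment, threshold 0.05), a step tested on simulated data. Exact permutations of the site labels gave p for single values. Descriptions used Python 3.11.15 with numpy 2.4.6 and pandas 2.3.3. No batch is given in the labels, no 2 arrays were identical, and precision is limited by the number of arrays. The genes followed, the gene lists and the cell type markers were chosen with earlier results of these data known. From the 3 pathway lists the text names the 4 genes with the highest and the 4 with the lowest mean, the 3 with the highest SD, any past the threshold and those detected in no tumor, and others named were chosen after their values were seen. Alternatives were another normalization, other filters, a trended robust prior, the mean of a gene's probe sets, other detection limits and leaving out tumors.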

Additional observations from a re-analysis of the deposited data

Results flagged for a closer look

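Over 39 measures, each read over all 8 tumors and over the 6 adrenal tumors (78 sets of values), 12 sets had 1 tumor far from the rest. The gap to the nearest tumor, as a share of the whole range, exceeded Dixon's critical value of 0.526 for 8 tumors or 0.625 for 6. Chance alone flags about 1 set in 20, but only for measures chosen without regard to their values. Vhl, Usp20, Eno2, Ak4 and Mt1 were among the 3 genes of highest SD in their lists over these same tumors. That share does not apply to them, and probe sets of 1 gene are not independent. The 12 of 78 can therefore not be read as an excess. Tumor 7 was the distant one in 7 of the 12.

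Tumor 7 was lowest for both Egln3 probe sets, with gaps of 0.601 (1418649_at, 7.39 against 10.33 to 12.28 in the other tumors) and 0.657 (1418648_at, 6.42 against 9.66 to 11.36). It was also lowest for the leading Ndrg1 probe set, with a gap of 0.637 (10.02 against 11.11 to 11.73), and for the mean of the 7 target genes, with a gap of 0.702 (-0.91 against -0.03 to 0.35). That mean includes Egln3 and Ndrg1, and the median of the 7 genes did not set tumor 7 apart (-0.30, with -0.31 in tumor 3). Tumor 7 was highest for Vhl with a gap of 0.847 (12.08 against 9.26 to 9.70), for Ak4 with 0.711 (11.34 against 8.35 to 9.22) and for Mt1 with 0.598 (12.70 against 9.81 to 10.97).

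Among the adrenal tumors, tumor 3 was lowest for Ankrd37 with a gap of 0.765 (7.84 against 8.52 to 8.73). Tumor 5 was highest for Vegfa probe set 1451959_a_at with 0.686 (7.03 against 6.29 to 6.52) and for Eno2 with 0.659 (8.81 against 5.08 to 6.35). Over all 8 tumors, tumor 1 was lowest for Usp20, a deubiquitinase known to act on the alpha subunit, with a gap of 0.591 (8.18 against 9.01 to 9.58), on the array with the largest difference between the Gapdh ends. Tumor 8 was highest for Arnt probe set 1449696_at with 0.575 (5.60 against 5.06 to 5.29), although this probe set was below detection in every tumor.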

How the results depend on the processing

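No paired analysis was possible, because the tumor numbers, 1 to 8, do not tell whether any mouse gave tumors at both sites. Of 149 recomputed site differences of single genes, 124 kept their direction and side of the threshold, 23 changed sign and 2 passed the threshold. Passing values were those of Egln3 and Ndrg1 without tumor 8. Leaving out 1 tumor in turn, the SD over the tumors ranged from 0.70 to 1.66 for Egln3 and from 0.21 to 0.61 for Ndrg1, the lowest without tumor 7. Over all genes, 3 called genes became 1 when the filter followed the receptor-based limit, 6 with the mean of all probe sets of a gene and 9 without tumors 6 and 7, and 5 called probe sets became 3 with the receptor-based limit. Epas1 changed sign after a further quantile normalization (-6e-04) and after centring arrays on their median (-0.0094), and Arnt (0.0428) and Vegfa (0.0211) did so with the mean of all probe sets. Without tumors 6 and 7, the differences were -0.27 for Hif1a, 0.30 for Vegfa, 0.15 for Ndrg1 and 0.47 for Ankrd37. Leaving out 1 tumor in turn gave 2 to 951 called genes and 4 to 1198 called probe sets, the highest counts without tumor 8, and 8 of each without tumor 7. It gave 0 to 2 called genes among the 10. The differences then ranged from -0.22 to 0.32 for Hif1a, -0.57 to 0.57 for Epas1, -0.29 to 0.26 for Vegfa, -4.00 to -0.32 for Egln3, -1.47 to 0.17 for Ndrg1, -0.33 to 0.15 for Adm and -1.14 to 0.43 for Ankrd37. With a log2 limit of 5, 23 of the 25 probe sets counted as detected in every tumor. The cause of these changes was not tested. Signal over background limits what can be said of Car9 and of the 7 probe sets detected nowhere: a level below the limit may still be expression that these arrays could not separate from background.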

Other observations

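The genes whose profile over the 8 tumors was most like that of the factors and targets were read from 11896 genes that were tested and detected in at least 2 tumors. These likenesses are descriptions over 8 tumors that share 1 array type and 1 normalization, and the genes were picked for them.

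The mean centred profile of the 7 target genes was followed most closely by Abcg1, a sterol transporter, with a Pearson r of 0.989, and then by Zfpm1, a partner of GATA factors, with 0.986, Wscd2 with 0.979, Zfp551 with 0.979 and D430019H16Rik with 0.978. Abcg1 read 8.76 in tumor 7, against 9.71 to 10.15 in the other tumors. Without tumor 7 its r was 0.927, and that of the other 4 was between 0.832 and 0.892.

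Hif1a was followed by Chrna7, an acetylcholine receptor subunit, with an r of 0.960, and by 6820431F20Rik, Ube2cbp, Nrde2 and Mllt3 with 0.946 to 0.916. Epas1 was followed by Iqgap2 with 0.983, Arhgef26 with 0.964, and Ramp3, a coreceptor that makes the adrenomedullin receptor, Pon2 and Fcgrt with 0.958 each. These r values moved little without tumor 7, when they lay between 0.901 and 0.956 for Hif1a and between 0.946 and 0.989 for Epas1.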
